A study of Mus musculus with 18 samples.

Results

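Expression and chromatin are described here for 9 genes of the colony-stimulating factor and growth receptor group, which were taken by symbol from the TPM table (a share of transcripts corrected for gene length that sums to 1000000 in each library). They are the receptors Csf3r, Csf1r, Csf2ra, Csf2rb, Csf2rb2, Kit and Flt3, the ligand Csf1 and the progenitor surface protein Cd34. All 9 were found among the 34896 genes of the table and all 9 passed the filter on low values, at least 1 TPM in at least 3 libraries, that left 13061 genes to test. For each gene the peaks of CHD4, of dimethylated lysine 4 of histone H3 (H3K4me2) and of ATAC-seq that overlapped the gene or lay within 10 kb of it were collected.

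Colony-stimulating factors are secreted proteins that keep myeloid progenitors alive and direct them into granulocytes or macrophages, and each acts through its own receptor. G-CSF, read by the product of Csf3r, is the main factor of neutrophil production. M-CSF, the product of Csf1, acts through CSF1R on monocytes and macrophages, and GM-CSF is bound by an alpha chain from Csf2ra that signals through a beta chain shared with IL-3 and IL-5. KIT and FLT3 are receptor tyrosine kinases of stem and progenitor cells. CHD4 is the ATPase of the NuRD chromatin remodelling complex, GFI1 is a transcriptional repressor of myeloid cells, and H3K4me2 marks promoters and enhancers that are active or poised.

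The cells came from bone marrow of C57BL/6 mice aged 6 to 12 weeks and were sorted as granulocyte-monocyte progenitors (GMP, lineage negative, cKIT positive, SCA1 negative and positive for CD16/32 and CD34), pre-neutrophils (preNeu, with Mac-1 and Gr-1, high cKIT and intermediate CXCR4) and mature neutrophils (matNeu, negative for Siglec-F and positive for CXCR2). RNA-seq was made of wild type (WT) cells with 3 libraries a cell type, H3K4me2 ChIP-seq of WT cells with 1 library a cell type, ATAC-seq of WT preNeu and matNeu cells, and CHD4 ChIP-seq of GMPs from WT and from Gfi1-/- mice with 1 library a genotype. No label says that the RNA libraries came from separate animals, so the p-values measure the spread between these libraries, which may be technical. The cKIT and CD34 proteins were used to sort the cells, so the values of Kit and Cd34 between the sorted populations are given as a description, without a test.

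Libraries of 1 cell type correlated with an r of 0.96 to 0.971, and each held 10754 to 12256 genes at 1 TPM or more. The 6 GMP markers, Mpo and Elane among them, summed to 45758 to 47787 TPM in GMPs, were at 9531 to 10561 in preNeu cells and at 44.2 to 79.3 in matNeu cells. The 6 preNeu markers summed to 101 to 129, 148709 to 174930 and 4533 to 6802 TPM in the same order. The 5 matNeu markers other than Csf3r summed to 16.7 to 25.0, 697 to 857 and 25849 to 29750.5 TPM. They include Cxcr2, at 3027 to 3976 TPM in matNeu cells, whose protein was used to sort those cells and which is no independent check. The sum of each list was thus highest in the cells it names, but single genes can carry a sum. Mpo alone was at 31476 to 33396 TPM in GMPs. Cebpe of the GMP list was at 16.2 to 48.5 TPM in GMPs and 36.4 to 51.9 in matNeu cells. It was highest in preNeu cells, at 437 to 588 TPM. On log2(TPM + 1) the median over the tested genes fell by 0.52 from GMP to preNeu, by 0.92 from GMP to matNeu and by 0.32 from preNeu to matNeu, and the changes of single genes stand beside these shifts. Fewer cells of a type and less RNA per cell cannot be told apart in such bulk samples.

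The receptor genes fell into 3 patterns. By mean TPM, Csf3r, Csf2ra, Csf2rb and Csf2rb2 were lowest in GMPs and highest in matNeu cells. The GMP and preNeu libraries of Csf2rb overlapped. Neither Csf2rb nor Csf2rb2 differed between GMP and preNeu cells as deposited (adjusted p = 0.0667 and 0.0739 by limma). Csf1r and Csf1 had their lowest values in preNeu cells, and Kit, Flt3 and Cd34 were highest in GMPs. In matNeu cells Csf3r alone reached 3874 TPM and held 74.7% of the summed TPM of the 7 receptors, against 17.9% in GMPs.

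**Figure D1:**
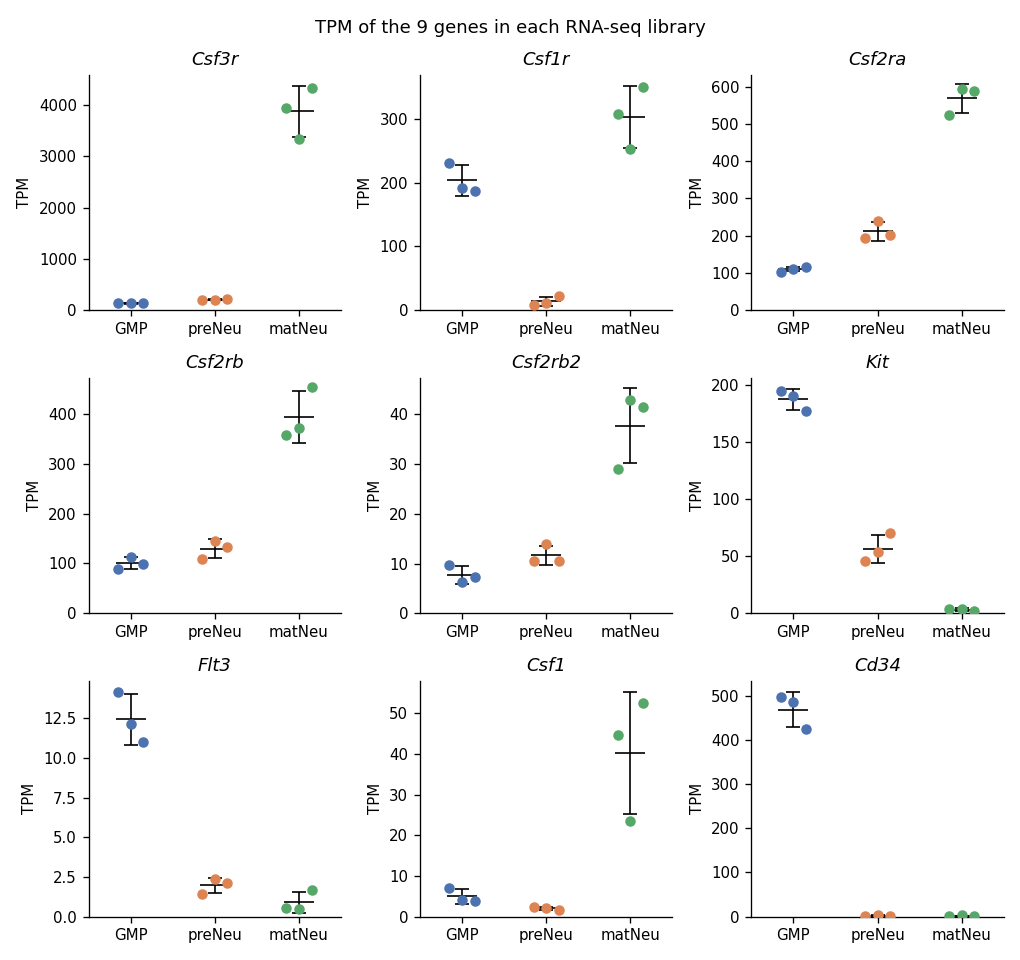
TPM of the 9 genes in each of the 9 RNA-seq libraries, in 1 panel a gene with its own linear axis. Points are libraries, and the lines give the mean and the SD of the 3 libraries of a cell type. Csf3r runs from 131 to 142 TPM in GMPs and from 3340.1 to 4336 in matNeu cells, whereas Cd34 runs from 425 to 498 in GMPs and stays under 3.3 in the other cells.

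By limma with p-values adjusted over all 13061 genes at 0.05, 2 of the 7 genes other than Kit and Cd34 passed as higher in preNeu cells than in GMPs (Csf3r and Csf2ra), beside 14.7% of all genes, and 3 passed as lower (Csf1r, Flt3 and Csf1), beside 44.3%. For matNeu cells against GMPs, 5 passed as higher (Csf3r, Csf2ra, Csf2rb, Csf2rb2 and Csf1), beside 22.8% of all genes, and 1 as lower (Flt3), beside 54.1%. From preNeu to matNeu cells 6 passed as higher (Csf3r, Csf1r, Csf2ra, Csf2rb, Csf2rb2 and Csf1), beside 22.9%, and 0 as lower, beside 39.8%, with 1 (Flt3) lower at an unadjusted p under 0.05. These comparisons share libraries and are not independent of each other. The calls of all genes leaned to lower values, and the scaling of the TPM moved that split. Among all called genes 25.0%, 29.6% and 36.5% were higher in the 3 comparisons as deposited, 41.3%, 44.2% and 48.1% after median ratio scaling, and 48.1%, 50.2% and 50.3% after quantile normalization. For the 7 genes the counts then became 4 higher and 2 lower in preNeu against GMP under both scalings, and 6 higher and 1 lower in matNeu against GMP under median ratio scaling.

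**Figure D2:**
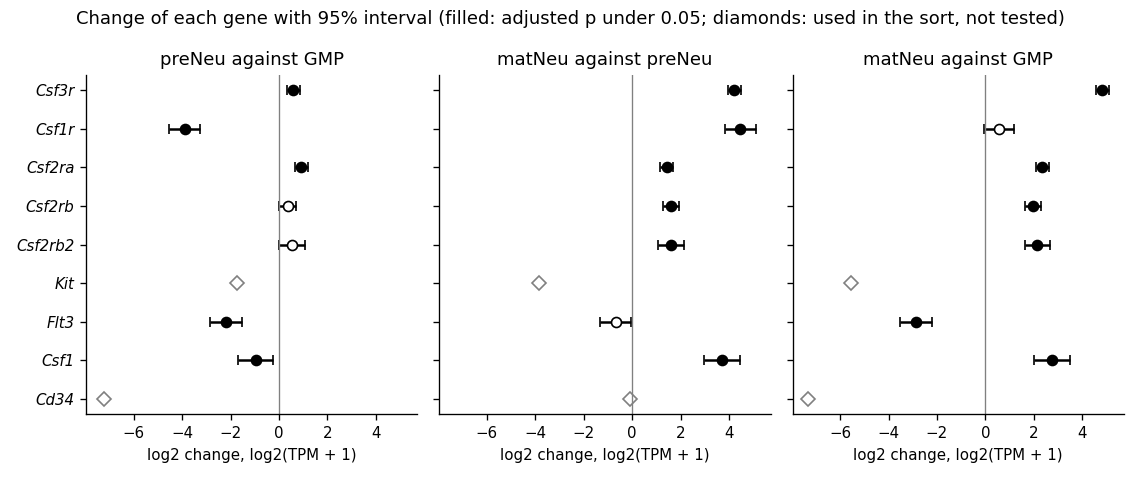
Change of each gene on the log2(TPM + 1) scale in the 3 comparisons, with its 95% interval, where filled points have an adjusted p under 0.05 by limma. Diamonds give Kit and Cd34, whose proteins were used in the sort, without interval or test. In matNeu cells against GMPs Csf3r stands farthest to the right at 4.82, and the interval of Csf1r crosses 0.

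Csf3r, on chromosome 4 from 126024550 to 126044440 of GRCm38 (plus strand), encodes the G-CSF receptor. Its 250 bases before the RefSeq start (RefSeq, GRCm38.p6) held the core GAGGAA of the myeloid factor SPI1 once, from 86 to 81 bases before the start, shown here in capitals with 12 bases on either side at chr4:126024561-126024590, plus strand. The same core, searched on both strands, was held by 23.3% of 32851 promoters and by 4 of the 7 promoters of these genes in the table (Csf3r, Csf2ra, Csf2rb2 and Kit), and such a match is a description of the letters only.
Csf3r core: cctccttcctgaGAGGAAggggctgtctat

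In GMPs Csf3r was at 132, 131 and 142 TPM in the 3 libraries, in preNeu cells at 191, 201 and 225 TPM, and in matNeu cells at 3946, 3340.1 and 4336 TPM. No library of 1 cell type overlapped those of another, and every matNeu library lay far above the rest. The mean rose from 135 ± 6.00 TPM (SD, n = 3) in GMPs to 206 ± 17.6 in preNeu cells, a log2 change of 0.60 (SE 0.12, 95% interval 0.34 to 0.87, adjusted p = 0.00137 by limma). It then rose to 3874 ± 502 TPM in matNeu cells, 18.8-fold above preNeu cells with a log2 change of 4.22 (SE 0.12, adjusted p = 1.12e-09) and 28.7-fold above GMPs with a log2 change of 4.82 (SE 0.12, adjusted p = 2.18e-10). By its mean, Csf3r was the gene at rank 1438 of 13061 in GMPs, 649 in preNeu cells and 26 in matNeu cells. When a log2 change of at least 1 was required, the step from GMP to preNeu no longer passed.

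Csf1r (chromosome 18, 61100598 to 61132149, plus strand) encodes the receptor of M-CSF and IL-34 and is known as a gene of monocytes and macrophages. Its libraries were at 232, 192 and 188 TPM in GMPs, at 8.22, 10.9 and 22.3 TPM in preNeu cells and at 309, 253 and 349.6 TPM in matNeu cells. The preNeu libraries were thus the low ones, and the GMP and matNeu libraries did not overlap either. Csf1r fell from 204 ± 24.1 to 13.8 ± 7.48 TPM between GMP and preNeu cells, 14.8-fold, with a log2 change of -3.90 (SE 0.29, adjusted p = 1.9e-06 by limma), and rose 22.0-fold to 304 ± 48.6 TPM in matNeu cells, a log2 change of 4.47 (SE 0.29, adjusted p = 2.37e-07). The difference between matNeu cells and GMPs was 0.57 on the log2 scale (SE 0.29, 95% interval -0.07 to 1.20) and did not pass (adjusted p = 0.0948). It passed under median ratio scaling at 1.40, in the fit of the compared groups alone and without the third preNeu library at 0.57. The 10 monocyte and macrophage markers summed to 1656 to 1979 TPM in GMPs, to 97.9 to 126 in preNeu cells and to 97.6 to 146 in matNeu cells. In matNeu cells Ccr2 was at 0.269 to 0.891, Ms4a6c at 1.45 to 1.98, F13a1 at 1.58 to 4.98 and Cx3cr1 at 0.0676 to 1.56 TPM, and 4 of the 10 had a mean under 1 TPM, while Adgre1 was at 75.7 to 97.0. The part of such cells in the level of Csf1r in GMPs was not tested.

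Csf1 (chromosome 3, 107741048 to 107760469, minus strand) encodes M-CSF, the ligand of that receptor. It was at 6.99, 4.02 and 3.85 TPM in GMPs, at 2.23, 2.07 and 1.67 TPM in preNeu cells and at 44.6, 23.4 and 52.6 TPM in matNeu cells. Its groups did not overlap, but the matNeu libraries spread over a wide range. The mean of 40.2 ± 15.04 TPM in matNeu cells was 8.12-fold above the 4.95 ± 1.77 TPM of GMPs (log2 change 2.75, SE 0.33, adjusted p = 1.63e-05 by limma) and 20.2-fold above the 1.99 ± 0.289 TPM of preNeu cells (log2 change 3.71, SE 0.33, adjusted p = 2.68e-06). The fall from GMP to preNeu, at -0.96 (SE 0.33, adjusted p = 0.0273), was not stable. It no longer passed without the first GMP library at -0.73, without the second preNeu library at -0.98, without the third at -0.88, with no filter on low values, or under median ratio scaling at -0.61 and quantile normalization at -0.24. Csf1 and Csf1r thus shared the low value in preNeu cells and correlated with an r of 0.76 over the 9 libraries, which share their cell types.

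The GM-CSF alpha chain and both beta chains rose in matNeu cells. Csf2ra (chromosome 19, 61223957 to 61228429, minus strand), the GM-CSF alpha chain, went up at each step. The 250 bases before its RefSeq start, at chr19:61228419-61228668 on the minus strand, are shown with both copies of the SPI1 core GAGGAA in capitals, which lie side by side from 14 to 9 and from 8 to 3 bases before the start.
Csf2ra promoter: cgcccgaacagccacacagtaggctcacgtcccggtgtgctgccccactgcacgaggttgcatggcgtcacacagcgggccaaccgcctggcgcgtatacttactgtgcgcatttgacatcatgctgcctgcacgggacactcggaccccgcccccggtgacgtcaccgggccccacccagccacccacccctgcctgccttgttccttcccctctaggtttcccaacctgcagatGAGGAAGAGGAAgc

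Csf2ra was at 104, 111 and 116 TPM in GMPs, at 193, 239 and 202 TPM in preNeu cells and at 525, 593 and 588 TPM in matNeu cells, with no overlap between the groups. Its mean rose 1.92-fold from GMP to preNeu (log2 change 0.93, SE 0.12, adjusted p = 6.71e-05 by limma) and a further 2.69-fold to 569 ± 38.0 TPM in matNeu cells (log2 change 1.43, SE 0.12, adjusted p = 1.49e-06). The first of these steps did not pass when a log2 change of at least 1 was required.

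Csf2rb (chromosome 15, 78325752 to 78353847, plus strand), the beta chain common to the receptors of GM-CSF, IL-3 and IL-5, was at 89.5, 113 and 98.7 TPM in GMPs, at 108, 146 and 134 TPM in preNeu cells and at 357, 372 and 453 TPM in matNeu cells. GMP and preNeu libraries overlapped, and all matNeu libraries were above both. The rise to 394 ± 51.9 TPM in matNeu cells was 3.92-fold over GMPs (log2 change 1.96, SE 0.15, adjusted p = 4.98e-07 by limma) and 3.05-fold over preNeu cells (log2 change 1.60, SE 0.15, adjusted p = 4.66e-06). Between preNeu and GMP the difference was 0.36 (95% interval 0.02 to 0.69) with an adjusted p of 0.0667, and it passed under median ratio scaling (0.78), under quantile normalization (0.85), without the second GMP library (0.45) and without the first preNeu library (0.48).

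Csf2rb2 (chromosome 15, 78282507 to 78305721, minus strand), which in the mouse encodes a second beta chain that serves IL-3 alone, was the lowest of the 3 chains. It was at 9.77, 6.22 and 7.24 TPM in GMPs, at 10.5, 13.9 and 10.4 TPM in preNeu cells and at 29.0, 42.8 and 41.4 TPM in matNeu cells, in groups that did not overlap. It rose 4.87-fold from GMP to matNeu (log2 change 2.15, SE 0.24, adjusted p = 8.84e-06 by limma) and 3.25-fold from preNeu to matNeu (1.61, SE 0.24, adjusted p = 0.000141), while the difference between preNeu and GMP of 0.54 (95% interval 0.01 to 1.06) did not pass at an adjusted p of 0.0739. That difference passed under median ratio scaling (0.91), under quantile normalization (1.18) and without the first GMP library (0.70). The transcripts of Csf2rb and Csf2rb2 share 1369 words of 31 bases, which is 18.8% of those of Csf2rb and 28.6% of those of Csf2rb2, so reads could be split between these neighbours and their single values are uncertain.

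The proportions among Csf2ra, Csf2rb and Csf2rb2 can be read per library. Csf2rb2 made up 9.84%, 5.21% and 6.83% of the 2 beta chains in the GMP libraries, 8.87%, 8.71% and 7.23% in preNeu and 7.52%, 10.3% and 8.36% in matNeu libraries, and these groups overlapped. The alpha chain Csf2ra stood at 1.02 ± 0.0873 times the summed beta chains in GMPs (n = 3), at 1.51 ± 0.118 times in preNeu and at 1.33 ± 0.124 times in matNeu cells. Every GMP library, at 0.928 to 1.10, was below every other library, at 1.19 to 1.63. The alpha chain of the IL-3 receptor, Il3ra, which is named here after its values were seen, went the other way. It was at 29.6, 39.1 and 37.3 TPM in GMPs, at 15.9, 17.2 and 13.7 TPM in preNeu cells and at 3.11, 3.78 and 9.86 TPM in matNeu cells, without overlap, and fell by 2.59 on the log2 scale from GMP to matNeu (adjusted p = 2.85e-05 by limma). Relative to the summed beta chains Il3ra stood at 0.326 ± 0.0267 in GMPs, at 0.112 ± 0.0197 in preNeu and at 0.0124 ± 0.00657 in matNeu cells (n = 3 each). Il5ra, the alpha chain of the IL-5 receptor and likewise named after the fact, was at 2.25 to 4.999 TPM in GMPs and at 0.339 to 2.31 TPM in matNeu cells, a difference of -0.80 that did not pass (adjusted p = 0.0889).

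Kit (chromosome 5, 75574916 to 75656722, plus strand) encodes the stem cell factor receptor by which GMPs and preNeu cells were sorted. Its libraries were at 194, 191 and 177 TPM in GMPs, at 45.9, 53.7 and 70.0 TPM in preNeu cells and at 3.83, 3.89 and 1.62 TPM in matNeu cells. The mean was 3.31-fold lower in preNeu cells than in GMPs and 18.2-fold lower again in matNeu cells, with no overlap at either step. Although preNeu cells were gated for high cKIT protein, their Kit transcript lay between those of the other cells.

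Cd34 (chromosome 1, 194938819 to 194961279, plus strand), the sialomucin used in the GMP gate, was at 498, 486 and 425 TPM in GMPs, at 1.22, 3.27 and 2.13 TPM in preNeu cells and at 1.84, 2.35 and 1.56 TPM in matNeu cells. The GMP mean of 469.9 ± 39.0 TPM was 213-fold and 245-fold above those of the later cells. In preNeu and matNeu cells the libraries overlapped, and the sign of their difference changed under other scalings, from -0.09 as deposited to 0.19 and 0.40.

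Flt3 (chromosome 5, 147330741 to 147400489, minus strand), the receptor of FLT3 ligand, was at 14.1, 12.1 and 11.0 TPM in GMPs, at 1.45, 2.35 and 2.13 TPM in preNeu cells and at 0.560, 0.484 and 1.68 TPM in matNeu cells. GMP libraries were the highest without overlap, whereas the later cells overlapped each other. Flt3 fell 6.28-fold from GMP to preNeu (log2 change -2.18, SE 0.30, adjusted p = 0.000113 by limma) and 13.7-fold from GMP to matNeu (-2.86, SE 0.30, adjusted p = 5.15e-06). Between preNeu and matNeu the difference of -0.68 (95% interval -1.34 to -0.03) had an adjusted p of 0.066, and it passed at -0.96 without the third matNeu library and at -0.68 in a fit without a trend in the variance. The 7 mast cell, basophil and eosinophil markers summed to 1245 to 1515 TPM in GMPs, came to 120.1 to 174 TPM in preNeu cells and were at 2.54 to 9.32 TPM in matNeu cells, with Epx at 0 in every matNeu library. Their part in the values of Kit, Flt3 and Cd34 was not tested.

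The order of levels, which TPM allows between genes, was different in each cell type. In GMPs it ran from Cd34 through Csf1r, Kit, Csf3r, Csf2ra, Csf2rb, Flt3 and Csf2rb2 to Csf1, and the libraries of Csf1r and Kit, of Csf2ra and Csf2rb, and of Csf2rb2 and Csf1 overlapped. In preNeu cells Csf2ra and Csf3r led with overlapping libraries, followed by Csf2rb, Kit, then Csf1r and Csf2rb2, which overlapped, and then Cd34, Csf1 and Flt3, which did too. In matNeu cells Csf3r, Csf2ra, Csf2rb and Csf1r followed each other without overlap, then Csf1 and Csf2rb2 with overlap, and Kit, Cd34 and Flt3 stood last with each overlapping the next.

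The summed TPM of the 7 receptors was 775, 756 and 740.1 in GMPs, 558, 667 and 666 in preNeu cells and 5169.7, 4605 and 5772 in matNeu cells. The matNeu sums were the high ones, and those of GMPs were all above those of preNeu cells. Csf3r held 17.9 ± 1.15% of the sum in GMPs (n = 3), 32.7 ± 2.24% in preNeu and 74.7 ± 1.94% in matNeu cells. Csf1r and Kit together led the sum in GMPs at 26.9% and 24.7% and were at 2.15% and 8.93% in preNeu and at 5.84% and 0.0622% in matNeu cells. Csf2ra and Csf2rb took 33.6% and 20.4% of the sum in preNeu cells, against 14.6% and 13.3% in GMPs and 11.1% and 7.61% in matNeu cells, where their TPM was nonetheless highest. Flt3 held 1.64%, 0.311% and 0.0168% in the 3 cell types.

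**Figure D3:**
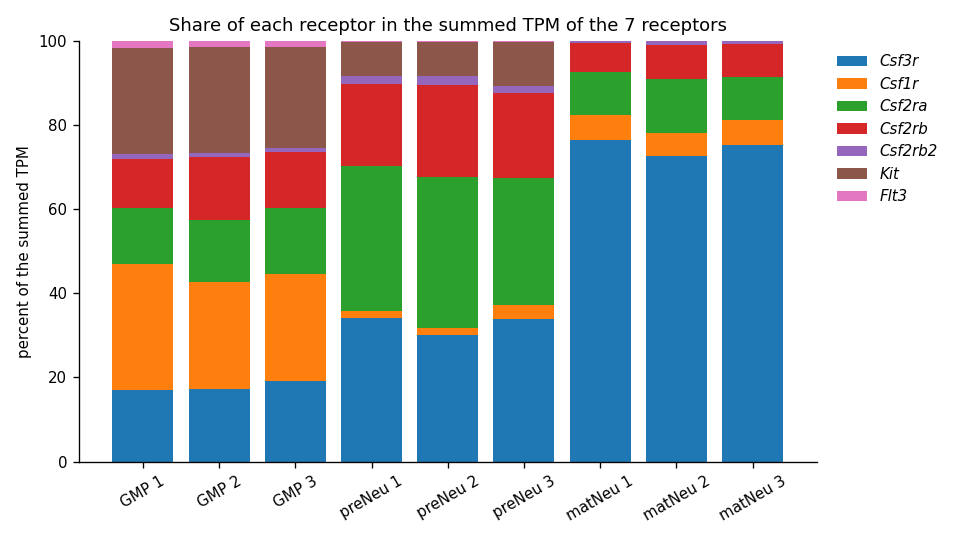
Share of each of the 7 receptors in their summed TPM, as a stacked bar from 0 to 100% for each of the 9 libraries. Csf3r fills 72.5 to 76.3% of the matNeu bars, Csf1r and Kit fill the largest part of the GMP bars, and Csf2ra and Csf2rb with Csf3r fill most of the preNeu bars.

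The genes most alike in their levels over the 9 libraries are named as a description, since the libraries share 3 cell types. Nearest to Csf3r were Fam32a and Ankrd33b (Pearson r of 0.999 each), to Csf2ra Cxcr2 and Klra17 (0.997 each), to Csf2rb Dnm2 (0.998) and Zfp276 (0.996), and to Csf2rb2 Tnfsf14 (0.985) and Prkab1 (0.984). Csf1r was nearest to Ctsa (0.997) and Tec (0.993), both with their lowest mean in preNeu cells, and Csf1 to Zbtb39 (0.994) and Egr1 (0.993). Kit was nearest to Exo1 and Samm50 (0.997 each), Flt3 to Mgat5 (0.998) and Rassf4 (0.996), and Cd34 to Ear6 and Nrg1 (0.998 each). Among the 9 genes themselves Csf2ra and Csf2rb correlated with an r of 0.97, Flt3 and Cd34 with 0.95, and Csf1r and Csf3r with 0.50.

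Other ligands of these receptors were at or near 0 in most cases. Of 11 listed ligand genes, Csf2, Csf3, Il3, Il5, Il34, Epo and Thpo were listed at 0 in all 9 libraries, Kitl, Il6 and Il7 reached no more than 2.06, 2.31 and 0.606 TPM in any library, and 1 passed the filter, Flt3l. Its means of 5.89, 10.5 and 7.82 TPM in GMP, preNeu and matNeu cells passed in none of the comparisons as deposited, but were higher than in GMPs in preNeu cells (1.05 and 1.31, adjusted p = 0.0083 and 0.00236 by limma) and in matNeu cells (1.07 and 1.72, adjusted p = 0.00457 and 0.000191) after median ratio scaling and quantile normalization.

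Other cytokine and growth factor receptors, 24 genes that all passed the filter, gave 3 higher and 12 lower from GMP to preNeu, where 14.7% of all genes were higher and 44.3% lower. In matNeu against GMP 15 were higher and 7 lower, beside 22.8% and 54.1% of all genes, with a median log2 change of 1.13 beside -0.92. From preNeu to matNeu 15 were higher and 1 was lower, beside 22.9% and 39.8%. The balance in preNeu cells was not kept under the other scalings, with 7 higher and 9 lower after median ratio scaling and 10 and 8 after quantile normalization. The decoy receptor of IL-1, Il1r2, was at 0.0 to 4.80 TPM in GMPs, at 124 to 165 in preNeu cells and at 2474 to 2774 in matNeu cells, and rose by 10.10 on the log2 scale from the first to the last (SE 0.47, adjusted p = 1.06e-08 by limma). The IL-17 receptor chain Il17ra, at 75.4 to 81.4 TPM in GMPs and 705 to 871 TPM in matNeu cells, rose by 3.32 (adjusted p = 3.48e-09). Il6st, the signal chain of the IL-6 family, at 35.0 to 42.7 TPM in GMPs and 0.145 to 2.54 TPM in matNeu cells, fell by 4.57 (adjusted p = 3.3e-06), and Pdgfrb, a kinase receptor related to Kit and Csf1r, was at 5.24 to 10.2 TPM in GMPs and listed at 0 in all later libraries.

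The JAK and STAT arm, by which the G-CSF, GM-CSF and IL-3 receptors signal, was read from 15 listed genes. The list covers these families broadly, and not each of its genes is tied to these receptors. Its genes include inhibitors such as Socs3 and the STAT target Pim1 as well as genes that carry the signal. These 15 genes gave 5 higher and 4 lower from GMP to preNeu and 11 higher and 3 lower in matNeu against GMP. From preNeu to matNeu they gave 9 higher and 0 lower, each beside the shares of all genes just given. Under both other scalings the counts were 8 and 2 from GMP to preNeu and 13 and 0 from preNeu to matNeu. Their median log2 change of 1.26 from GMP to matNeu stood beside -0.92 for all genes. Socs3, the inhibitor that binds the G-CSF receptor, was at 0.0527 to 0.430 TPM in GMPs and at 184 to 299 TPM in matNeu cells, a rise of 7.56 on the log2 scale (SE 0.27, adjusted p = 1.49e-09 by limma). Pim1, a kinase gene and STAT target, rose by 3.27 (SE 0.29, adjusted p = 1.38e-06), with 3.87 to 6.70 TPM in GMPs and 42.4 to 78.6 TPM in matNeu cells. In preNeu cells Socs3 was at 0.226 to 0.545 TPM and did not differ from GMPs beyond the threshold (adjusted p = 0.463). Stat5a fell by 1.36 (adjusted p = 0.000256) and Tyk2 fell by 1.10 (adjusted p = 9.24e-05) between GMP and matNeu cells, and under quantile normalization neither passed, at -0.29 and -0.10. After median ratio scaling the list gave 11 higher and 1 lower in this comparison, and after quantile normalization 12 and 0.

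Of 42 kinases, adaptors and phosphatases that act below the receptors, 39 passed the filter, and 16 were higher and 9 lower in preNeu cells than in GMPs, 24 and 10 in matNeu cells against GMPs, and 20 and 10 from preNeu to matNeu, again beside 14.7% and 44.3%, 22.8% and 54.1%, and 22.9% and 39.8% of all genes. From GMP to preNeu the counts were 19 and 4 after median ratio scaling and 23 and 3 after quantile normalization, and from preNeu to matNeu 24 and 6 and 22 and 6. The median log2 change from GMP to matNeu was 0.92, beside -0.92 for all genes. The SRC family kinase Fgr, at 0.635 to 0.930 TPM in GMPs and 779 to 829 TPM in matNeu cells, had the largest rise of the list between these cells (8.80, adjusted p = 1.39e-11 by limma). It was at 216 to 258 TPM in preNeu cells, without overlap with either. Cblb, an E3 ligase that marks receptors for removal, fell by 3.06 and Spred1, an inhibitor of RAS signalling, fell by 2.23 (adjusted p = 3.14e-07 and 8.43e-05). In matNeu cells against GMPs the list gave 27 higher and 3 lower after median ratio scaling and 28 and 2 after quantile normalization.

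The direction of the genes of receptor shedding and endocytosis depended on the scaling. Of 10 listed, 9 passed the filter, with 1 higher and 2 lower from GMP to preNeu, 2 higher and 7 lower from GMP to matNeu (22.8% and 54.1% of all genes), and 2 higher and 3 lower from preNeu to matNeu. Their median change of -0.72 from GMP to matNeu stood beside -0.92 for all genes, and after median ratio scaling 3 were higher and 0 lower with a median of 0.10, after quantile normalization 2 and 1 with a median of 0.13. Rhbdf2, which guides a sheddase to the surface, rose by 3.15 (adjusted p = 4.93e-07 by limma) and Hgs by 0.53 (adjusted p = 0.00524), while the sorting protein Tsg101 fell by 1.13 (adjusted p = 3.82e-05) and the sheddase Adam10 fell by 1.00 (adjusted p = 1.57e-05) as deposited. After median ratio scaling Tsg101, at -0.30, and Adam10, at -0.18, did not pass.

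CHD4 had peaks at all 9 genes in WT GMPs, beside 32.4% of 21938 protein-coding genes with a peak within 10 kb. In Gfi1-/- GMPs only Flt3 and Cd34 of the 9 had one, beside 10.2% of all genes. Each genotype has 1 library, so the difference has no replicate check and no test, and the list of Gfi1-/- GMPs is shorter, with 7316 peaks against 35790. The fold enrichment given is that of a peak over its background in its own list.

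In all, 38 CHD4 peaks of WT GMPs lay at the 9 genes. Of these, 7 (18.4%) were kept, that is, overlapped by a peak of Gfi1-/- GMPs, beside 18.5% of all CHD4 peaks of WT GMPs. Cd34 carried 12 peaks (3 kept), Flt3 9 (4 kept) and Kit 6 (0 kept), Csf1, Csf1r, Csf2ra, Csf2rb and Csf2rb2 carried 2 each and Csf3r carried 1, none of them kept. Cd34 was thereby at rank 403 of the 21938 genes by number and at rank 107 by peaks per 100 kb of window, at 28.3, and Flt3 was at rank 633 by number. By place, 24 of the 38 summits lay in introns (6 kept), 9 upstream, 4 in promoters, from 2 kb before to 500 bp after a start (1 kept), and 1 downstream.

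The strongest sites at the 9 genes were intronic sites of Cd34 and Flt3. For comparison the DNA is shown 50 bases on either side of the summit, plus strand of GRCm38, for the strongest Cd34 site at chr1:194943653-194943753 (fold enrichment 30.1, 4882 bp after the start, kept), for the next at chr1:194946596-194946696 (20.1, 7825 bp after the start, not kept), for the 2 strongest Flt3 sites at chr5:147363220-147363320 (29.9) and chr5:147389238-147389338 (27.5), both kept, and for the single site at Csf3r at chr4:126017931-126018031 (5.89, not kept). The SPI1 core GAGGAA, here on the plus or as TTCCTC on the minus strand, is in capitals and lies once in each Cd34 site. None of these 5 holds the GFI1 core AAATCA on either strand.
Cd34 site 1: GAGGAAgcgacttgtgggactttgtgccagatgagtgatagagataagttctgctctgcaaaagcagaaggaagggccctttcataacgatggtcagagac
Cd34 site 2: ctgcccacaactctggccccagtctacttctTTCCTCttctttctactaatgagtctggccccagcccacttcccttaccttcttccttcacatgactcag
Flt3 site 1: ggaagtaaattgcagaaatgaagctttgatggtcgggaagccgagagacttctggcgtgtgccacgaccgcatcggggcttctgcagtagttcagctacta
Flt3 site 2: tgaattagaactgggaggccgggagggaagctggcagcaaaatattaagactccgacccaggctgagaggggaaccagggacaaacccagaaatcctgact
Csf3r site: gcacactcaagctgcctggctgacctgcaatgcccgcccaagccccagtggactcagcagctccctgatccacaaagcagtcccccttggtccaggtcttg

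Windows of 101 bases around the summits were read for 36 peaks at these genes, without the 2 peaks of Csf1r. The GFI1 core was in 1 of the 36 (a Cd34 site with a fold enrichment of 5.67 at 2174 bp after the start) and in 5.62% of 35728 windows of all CHD4 peaks. The SPI1 core was in 7 of 36, among them the promoter site of Csf2rb, and in 30.5% of all. In the 250 bases before the RefSeq starts, AAATCA was found at Cd34 alone of the 7 genes in the table, 110 to 105 bases before its start, beside 12.4% of all promoters, and the CEBP core TTGCNNAA in 0 of 7, beside 9.56%. The Cd34 promoter at chr1:194938571-194938820, plus strand, is shown with that core in capitals.
Cd34 promoter: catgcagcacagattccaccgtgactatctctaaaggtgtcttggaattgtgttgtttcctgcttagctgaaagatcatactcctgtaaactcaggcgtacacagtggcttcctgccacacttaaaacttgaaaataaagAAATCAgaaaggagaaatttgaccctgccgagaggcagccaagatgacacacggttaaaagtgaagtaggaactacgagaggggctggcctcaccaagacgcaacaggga

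Kept sites at these genes had higher fold enrichments than the others on the whole, with overlap, and with a median of 23.7 for the 7 kept peaks and of 6.15 for the 31 others. Of the strongest 10% of all CHD4 peaks, from a fold enrichment of 21.2 upwards, 92.9% were kept, and so were 4 of 4 at these genes. Of the next 10%, 49.9% were kept and 1 of 4 here, then 20.7% and 2 of 3, then 8.63% and 0 of 2. The remaining 25 peaks, in classes where 0.643 to 4.22% were kept, gave 0. The 7 genes without a kept peak had no peak among the strongest 20% of all peaks, and their highest were those of Csf1 at 12.4, 9408 bp before the start, and of Kit at 10.9, 1748 bp after it.

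The kept Flt3 sites had fold enrichments of 29.9, 27.5, 23.7 and 13.5 in WT and of 4.73, 9.84, 8.61 and 4.96 in Gfi1-/- GMPs. At Cd34 the kept sites had 30.1, 15.97 (at the promoter, 32 bp after the start) and 11.6 in WT, and 9.43, 5.55 and 5.47 in Gfi1-/- GMPs. All 7 were thus lower in the Gfi1-/- list, but each value is relative to the background of its own library. Among strong sites, those not kept were the second Cd34 site at 20.1 and a pair of Flt3 sites at 17.2 and 15.1.

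**Figure D4:**
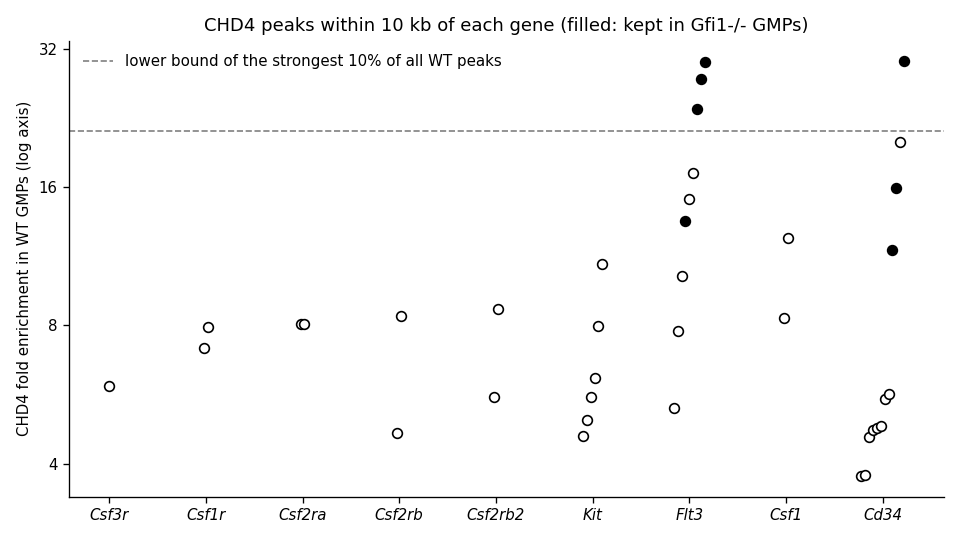
Fold enrichment of each CHD4 peak of WT GMPs within 10 kb of the 9 genes, on a log axis, with filled points for peaks that a Gfi1-/- peak overlaps. The dashed line is the lower bound of the strongest 10% of all WT peaks, 21.2, and the 4 points above it, 3 of Flt3 and 1 of Cd34, are all filled.

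At Csf3r, Csf1r, Csf2ra, Csf2rb, Csf2rb2 and Csf1 the CHD4 peaks had fold enrichments of 4.65 to 12.4. The Csf3r peak lay 6678 bp before the start, under an H3K4me2 peak in all cell types and under an ATAC-seq peak. Csf2rb and Csf2rb2 each had a promoter peak, at 8.38 and 8.69, with summits 6 bp after and 48 bp before the start. Those of Csf2ra, both at 8.07, were 3982 and 9785 bp before the start. Those of Csf1r, at 7.94 and 7.14, lay in introns, 2211 and 3121 bp after the start. The start used for Csf1r is 61105572, which lies inside the gene bounds given above. Csf1 had a promoter peak at 8.30, 336 bp after the start.

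Of the 38 CHD4 peaks 25 lay under an H3K4me2 peak of GMPs, beside 37.8% of all CHD4 peaks, 21 under one of preNeu cells, beside 59.5%, and 19 under one of matNeu cells, beside 52.5%. ATAC-seq peaks covered 4, beside 10.1%. The 7 kept peaks were all under H3K4me2 in GMPs and in preNeu cells, and 6 of 7 in matNeu cells. Both ATAC-seq lists hold the same peaks and were read as 1, which cannot separate preNeu from matNeu cells.

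An H3K4me2 peak lay at a promoter of all 9 genes in each cell type, beside 62.4% of protein-coding genes in GMPs, 61.9% in preNeu and 59.4% in matNeu cells. An ATAC-seq peak lay at a promoter of 4 of the 9, Csf3r, Csf2ra, Kit and Csf1, beside 38.4%. Within 10 kb of Cd34, Flt3 and Csf2rb2 there was no ATAC-seq peak. What differed between the genes was how far H3K4me2 reached. The lists differ in size, with 37643, 49578 and 44094 peaks over 49.8, 97.9 and 80.4 Mb in GMP, preNeu and matNeu cells, and the median covered share of the windows of all protein-coding genes was 3.83%, 6.43% and 4.81%, so that each value is best read by its percentile among these windows.

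At Csf3r the peak over the start measured 2755 bp in GMPs, 7841 bp in preNeu cells and 19368 bp in matNeu cells, wider than 99.8% of the peaks of that list. The matNeu peak spans a stretch upstream that held a separate peak in GMPs and in preNeu cells. Fold enrichment of the start peak was 4.42, 13.1 and 7.16, at the 96.1st, 96.6th and 77.5th percentile of the 3 lists, so width and enrichment differed. The covered share of the Csf3r window went from 15.1% (87.0th percentile) to 45.6% (97.3rd) and 63.4% (99.6th). With lists cut to equal numbers of peaks it went from 15.1% to 42.8% and 63.4%. The window also holds Mrps15, whose own marks cannot be told apart from those of Csf3r.

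At Cd34 the mark went the other way, with 6060 bp over the start in GMPs, 1126 bp in preNeu cells and 615 bp in matNeu cells. The covered share was 16.2% (88.6th percentile) in GMPs and 5.03% (44.9th) and 3.03% (41.7th) in the later cells, and with equal numbers of peaks 4.04% and 3.03%. Flt3 had 2484, 1014 and 925 bp over its start and a covered share of 9.68%, 7.12% and 7.23%, from the 75.3rd to the 52.3rd and 59.9th percentile. The Flt3 window also holds Urad and that of Csf1r holds Hmgxb3, with the same limit.

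Csf2rb, Csf2rb2 and Csf2ra had wider peaks in the later cells. The peak over the Csf2rb start measured 4214 bp in GMPs, 13410 in preNeu and 10519 bp in matNeu cells, with a covered share of 16.9%, 33.6% and 27.2% (89.4th, 93.2nd and 91.9th percentile). At Csf2rb2 the widths were 1293, 4212 and 4602 bp and the shares 3.73%, 12.4% and 14.7% (49.4th, 67.3rd and 78.7th percentile). For Csf2ra the GMP peak of 775 bp began 213 bp after the start, whereas peaks of 3045 and 2523 bp covered the start in preNeu and matNeu cells, with shares of 6.20%, 18.8% and 14.97%.

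Transcript and mark did not move together at each gene. Kit, which was 60.2-fold lower in matNeu cells than in GMPs, kept a peak of 8309, 7517 and 5056 bp over its start and covered shares of 9.43%, 13.7% and 11.2% (74.6th, 70.3rd and 71.4th percentile). Csf1r, lowest in preNeu cells, had 5207, 3733 and 4582 bp over its start, and its covered share of 14.1%, 7.24% and 9.41% was at the 85.4th, 52.7th and 66.7th percentile, lowest in preNeu cells too. Csf1 had 2074, 2901 and 2992 bp and a covered share of 9.02%, 18.6% and 12.0%, highest in preNeu cells, where its TPM was lowest. With 1 H3K4me2 library a cell type, none of these differences has a replicate check.

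**Figure D5:**
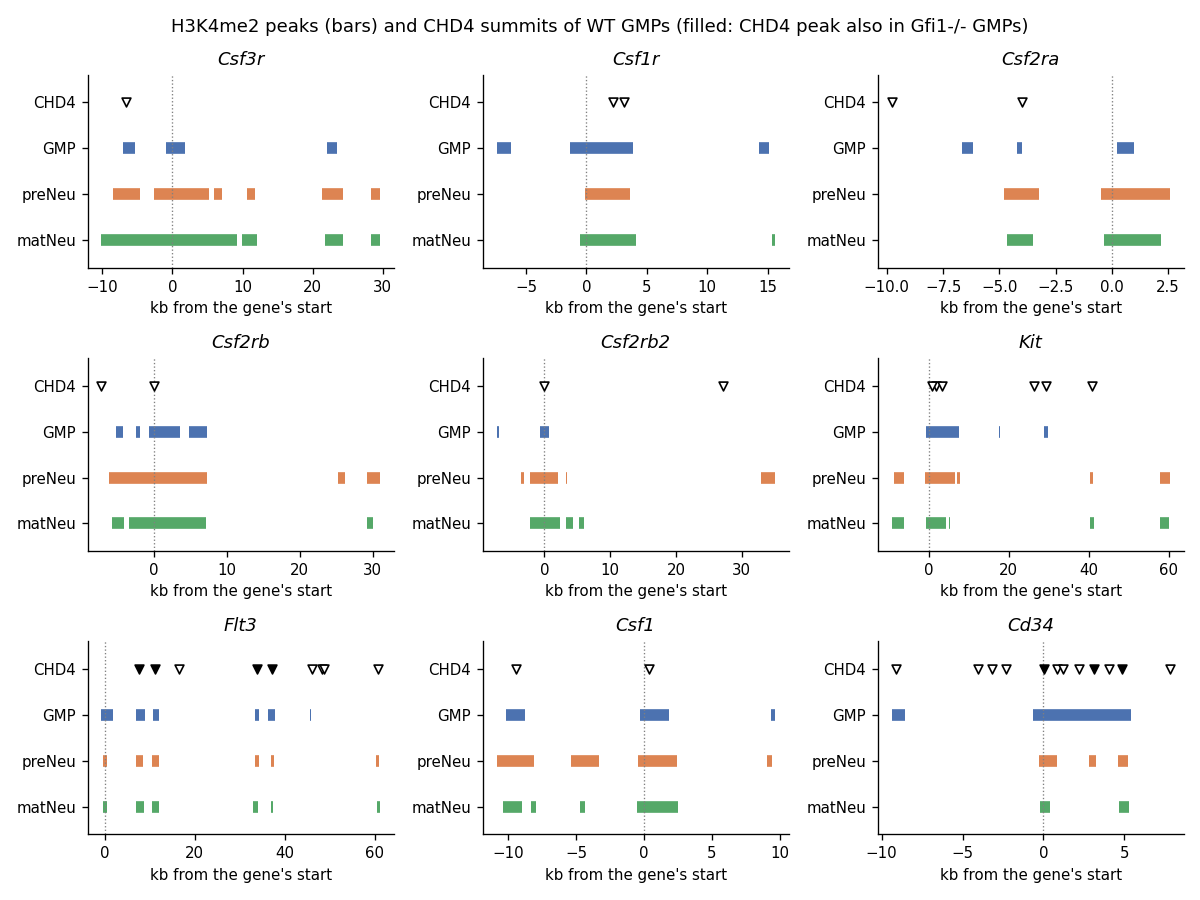
Map of the 9 genes with distance from the gene's start in kb along the direction of transcription. Bars are H3K4me2 peaks in GMP, preNeu and matNeu cells, and triangles are CHD4 summits of WT GMPs, filled where a Gfi1-/- peak overlaps. The bar over the Csf3r start grows to 19368 bp in matNeu cells, and that over the Cd34 start shrinks from 6060 bp in GMPs to 615 bp.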

How the data were processed

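The 18 samples of the series were grouped by their titles, since the cell type label differed from the title for 13 of them. For RNA-seq, the file deposited holds TPM for each gene in each library. The methods describe a TruSeq Stranded mRNA kit, TopHat, HTSeq and mm10, the submitters' processing notes also list kallisto 0.44.0, and how TPM was made is not stated, so the depth behind a value is unknown and no count test was run. For ChIP-seq and ATAC-seq, peak lists were deposited whose fold enrichment is a linear ratio over background. The −log10 q-value was used as deposited, and the deposited score was not used. The processing notes list FastQC 0.11.5, MultiQC 1.6, Trimmomatic 0.36, BWA 0.7.17 and MACS2 2.1.0 without roles. Peaks were used as deposited, and a peak was counted as kept or under another where they overlapped by at least 1 bp. The lists for GFI1 and H3K4me3 placed 3105 of 26963 and 2179 of 20218 peaks past the chromosome ends of GRCm38 and were left out. The ATAC-seq lists were identical (16307 of 16307 peaks) and were used as 1. No value column was left unused (0 columns).

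Expression, as log2(TPM + 1), was fitted with limma 3.58.1 (R 4.3.3) by cell type without covariates, with a variance trend and Benjamini-Hochberg adjustment over all 13061 genes at 0.05. A fold change on this scale understates the change of low genes, so folds are given of mean TPM. The fit was tested on simulated data. The smallest p-value of an exact permutation test on these groups of 3 is 0.1. Genes were placed by GENCODE M21 on GRCm38, with starts from RefSeq where its promoter table holds the gene (7 of 9, without Csf2rb and Csf1r). Peaks were read with Python 3.11.15 and pandas 2.3.3, and plots drawn with matplotlib 3.10.9. Named are the 9 genes, 2 genes nearest to each by Pearson r, and in 5 pathway lists the 2 genes with the largest called change each way between matNeu and GMP, of which 1 is not reported here. The genes, the 5 pathway lists and the 10 marker lists were chosen with earlier results of these data known. Alternatives were other filters, pseudocounts, scalings, fits and minimum changes, leaving out each library, and other peak thresholds, overlaps and windows.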

Additional observations from a re-analysis of the deposited data

How the results depend on the processing

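Of 486 recomputed changes of the 9 genes, 461 kept their direction and their side of the threshold, 13 newly passed, 9 no longer passed and 3 reversed. These counts and those below include Kit and Cd34, whose values the sort bears on. The 3 were all of Cd34 in matNeu against preNeu cells (-0.09 as reported), at 0.19 under median ratio scaling, 0.40 under quantile normalization and 0.14 without the second preNeu library, and leaving out 1 library at a time gave -0.33 to 0.14. When a log2 change of at least 1 was required, 4 in place of 7 genes passed in preNeu against GMP. Leaving out 1 library gave 6 to 8, 8 to 9 and 7 to 8 of the 9 genes in preNeu against GMP, matNeu against GMP and matNeu against preNeu, and 6504 to 7859, 9198 to 10021 and 7451 to 8154 of all genes. The 9 correlations of libraries with the same number ran from -0.039 to 0.12, with 1 over 0.1, so the numbers were not taken as pairs. With the number as a replicate block 8, 8 and 7 of the 9 genes passed, and Csf2rb in preNeu against GMP was the addition.

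A window of 50 kb in place of 10 kb gave 67 CHD4 peaks, 15 of them kept. The H3K4me2 share of the 9 windows together was 11.1%, 16.2% and 16.0% in GMP, preNeu and matNeu cells. It was 4.33%, 14.2% and 13.4% for peaks that reached 5 on the −log10 q-value scale, 12.5%, 17.2% and 16.9% with windows of 5 kb, and 8.48%, 15.7% and 14.8% with windows of 50 kb. With equal numbers of peaks it was 15.3% in preNeu and 15.4% in matNeu cells. The cause of these shifts was not tested. Read depth, which limits every peak list, is unknown.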

Other observations

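CHD4 peaks within 10 kb in GMPs were also counted for the pathway genes outside the 9, beside 32.4% of all protein-coding genes in WT and 10.2% in Gfi1-/- GMPs. Of 24 other cytokine and growth factor receptors, 18 had a CHD4 peak in WT and 12 in Gfi1-/- GMPs, among them Il1r2, Il17ra and Igf1r. In the JAK and STAT arm 10 of 15 genes had one in WT and 1, Pias1, in Gfi1-/- GMPs. For kinases, adaptors and phosphatases the counts were 28 and 11 of 42, for receptor shedding and endocytosis 6 and 0 of 10, and for the ligands 4 and 1 of 11, the last being Il6. Each genotype has 1 library, and these counts and the differences between the lists have no test.

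Markers of other cell types gave these summed TPM ranges in GMP, preNeu and matNeu libraries. Dendritic cell markers were at 1.40 to 3.57, 3.48 to 8.80 and 46.8 to 61.6. Most of the matNeu sum came from Itgax, at 27.7 to 49.0 TPM, with Siglech at 6.60 to 11.6. Of the 7 dendritic cell markers, 2 had a mean under 1 TPM in matNeu cells. B cell markers were at 78.9 to 94.5, 26.5 to 47.2 and 62.9 to 137, with Ebf1 and Pax5 at 0 in all GMP libraries. T and NK cell markers were at 2.81 to 3.43, 0.768 to 3.04 and 9.09 to 14.3, and erythroid markers at 9.41 to 17.04, 12.6 to 16.6 and 6.75 to 13.3. Stem cell and multipotent progenitor markers were at 44.2 to 52.9, 8.99 to 19.7 and 7.53 to 13.003.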
